A study of Mus musculus with 2 samples.

Results

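Solute carriers are the membrane transporters named Slc followed by a family number, and the regions described here are those given to their genes. A region was given to a carrier gene when the nearest protein-coding transcription start (GENCODE M21 basic annotation) was that gene's and lay within 100 kb of the region's centre. This rule took 232 of the 14973 listed regions (1.55%), and they belonged to 165 of the 371 annotated genes whose symbol matches. At the edge of the rule, the last region inside was 95743 bp from the start of Slc39a11 (effect 0.80) and the first outside was 102169 bp from Slc17a6 (effect 0.90).

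The regions come from STARR-seq in activated T helper 1 (Th1) cells. STARR-seq is a reporter assay in which a genomic fragment drives its own transcription from an episome, and RNA output is compared with DNA input. Output libraries of 2 biological replicates formed the only group, all primary cells of strain C57BL/6NJ with the same donor label, transiently transfected with the episome and kept for 4 days in Interleukin-12 p70 (10 ng/mL), Interleukin-2 (10 ng/mL) and anti-Interleukin-4 (2 ug/mL). Activation used 3 days of anti-CD28 (1 ug/mL) and anti-CD3e (0.25 ug/mL). All 5 agents are named for both replicates, but the interleukin doses stand only in the label of replicate 1 and those of anti-CD28 and anti-Interleukin-4 only in that of replicate 2. Age and sex were not recorded. The authors' deposited table combines both libraries into 1 signed effect per region, so no value per library can be given, and the identity of the cells could not be checked against marker genes because no expression values were used here.

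A positive effect is read here as output above input. The sources used here state neither the direction nor the log base, and they do not say how the effect was scaled. Every region in the list has an adjusted p of at most 0.01, and the p-values and adjusted p-values imply 114722 tested regions, of which 13.1% are listed. A gene without a listed region is therefore not shown to lack activity.

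T cells that are activated to grow and divide take up more amino acids and glucose, and carriers set that supply. Amino acid carriers work at the plasma membrane and the lysosome, Slc2 proteins let glucose in, ZIP (Slc39) proteins bring zinc into the cytosol and ZnT (Slc30) proteins move it out, and Slc25 proteins exchange metabolites across the inner mitochondrial membrane. A reporter tests a fragment outside its chromosomal place, so an effect describes the fragment and not the level of the gene near it.

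Stretches from 9 regions are printed below, from the GRCm38 genome and on the strand of the gene, with no annotated exon in any of them. They were chosen after the values were seen, to show regions of both signs and the consensus sequences looked for. The first 3 belong to amino acid carriers. Capitals mark ACCAATC, a form of the NFY consensus (a CCAAT box), in the promoter of Slc1a5, the glutamine carrier ASCT2. They mark CARE (TGATGNAA, the element that ATF4 binds in genes of amino acid supply) downstream of the starts of Slc38a2 and Slc7a1, and the E-box CACGTG in Slc7a1.
Slc1a5, chr7:16781160-16781320, plus strand: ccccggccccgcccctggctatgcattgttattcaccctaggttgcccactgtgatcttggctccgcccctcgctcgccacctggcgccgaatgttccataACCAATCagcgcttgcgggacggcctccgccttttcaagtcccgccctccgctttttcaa
Slc38a2, chr15:96699110-96699240, minus strand: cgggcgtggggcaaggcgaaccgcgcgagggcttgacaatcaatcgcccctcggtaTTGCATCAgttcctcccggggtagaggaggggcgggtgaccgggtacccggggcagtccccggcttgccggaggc
Slc7a1, chr5:148399404-148399554, minus strand: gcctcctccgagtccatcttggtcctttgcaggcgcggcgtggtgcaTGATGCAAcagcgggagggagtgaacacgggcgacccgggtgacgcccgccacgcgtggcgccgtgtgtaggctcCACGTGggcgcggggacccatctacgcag
The next is the region of highest effect near an amino acid carrier, 27 kb beyond the start of Slc36a1, with the cyclic AMP response element (CRE, TGACGTCA) and an NFY consensus in capitals. It is followed by a region 22 kb upstream of Slc2a3, with an AP-1 consensus (TGANTCA) in capitals.
Slc36a1, chr11:55241085-55241220, plus strand: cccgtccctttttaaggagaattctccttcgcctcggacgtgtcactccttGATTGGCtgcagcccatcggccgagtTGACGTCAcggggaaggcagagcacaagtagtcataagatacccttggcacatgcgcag
Slc2a3, chr6:122764695-122764805, minus strand: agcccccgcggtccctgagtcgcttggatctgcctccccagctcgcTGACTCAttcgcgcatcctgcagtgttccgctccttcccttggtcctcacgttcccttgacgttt
Next come the promoters of Slc25a25, with a CRE, and Slc25a42, with NFY and ETS (CCGGAAG) consensus sequences.
Slc25a25, chr2:32424145-32424275, minus strand: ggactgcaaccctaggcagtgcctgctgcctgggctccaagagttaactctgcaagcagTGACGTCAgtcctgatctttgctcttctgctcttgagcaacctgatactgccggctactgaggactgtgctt
Slc25a42, chr8:70212330-70212605, minus strand: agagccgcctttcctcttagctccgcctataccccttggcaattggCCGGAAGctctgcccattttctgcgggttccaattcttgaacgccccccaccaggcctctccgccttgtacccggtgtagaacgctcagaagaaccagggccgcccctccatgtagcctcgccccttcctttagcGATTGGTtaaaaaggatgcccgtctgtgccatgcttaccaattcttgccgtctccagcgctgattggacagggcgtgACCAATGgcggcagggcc
The last 2 are from regions of negative effect. In Slc30a1 the capitals mark the metal response element (MRE, TGCACNC or TGCGCNC), and in Slc23a2 they mark each CpG.
Slc30a1, chr1:191906287-191906517, plus strand: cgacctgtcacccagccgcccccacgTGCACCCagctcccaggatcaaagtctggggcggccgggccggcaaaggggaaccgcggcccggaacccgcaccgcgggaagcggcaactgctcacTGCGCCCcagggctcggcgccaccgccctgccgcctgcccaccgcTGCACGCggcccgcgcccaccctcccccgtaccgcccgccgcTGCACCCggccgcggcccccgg
Slc23a2, chr2:132145314-132145463, minus strand: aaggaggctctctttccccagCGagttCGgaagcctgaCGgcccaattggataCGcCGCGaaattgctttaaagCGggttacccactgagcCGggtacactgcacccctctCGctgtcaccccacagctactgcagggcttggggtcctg
The Slc30a1 stretch (231 bases) is 79.2% GC and holds 4 MRE matches. The GC content of a stretch need not be that of its region, to which the effect belongs. The negative Slc23a2 stretch is 60.0% GC and its whole region 66.7%. The positive Slc38a2 stretch is 70.2% GC and its region 68.4%, and for Slc7a1 the values are 69.5% and 62.8%.

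Carrier regions were mostly positive. Of the 232 regions in the authors' deposited table, 198 had a positive effect and 34 a negative one, or 85.3% positive (95% Wilson interval 80.2 to 89.3, counting error over regions only), beside 80.7% of all listed regions. Regions of like GC content and location in the whole list were positive in 83.2%, which lies within that interval. The median effect was 0.75, against 0.73 over all listed regions. Among positive regions the median was 0.79 (0.80 in the whole list), and among negative ones -1.10 (-1.07). Of the carrier genes 44.5% had a region, close to the 43.0% of all protein-coding genes.

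**Figure D1:**
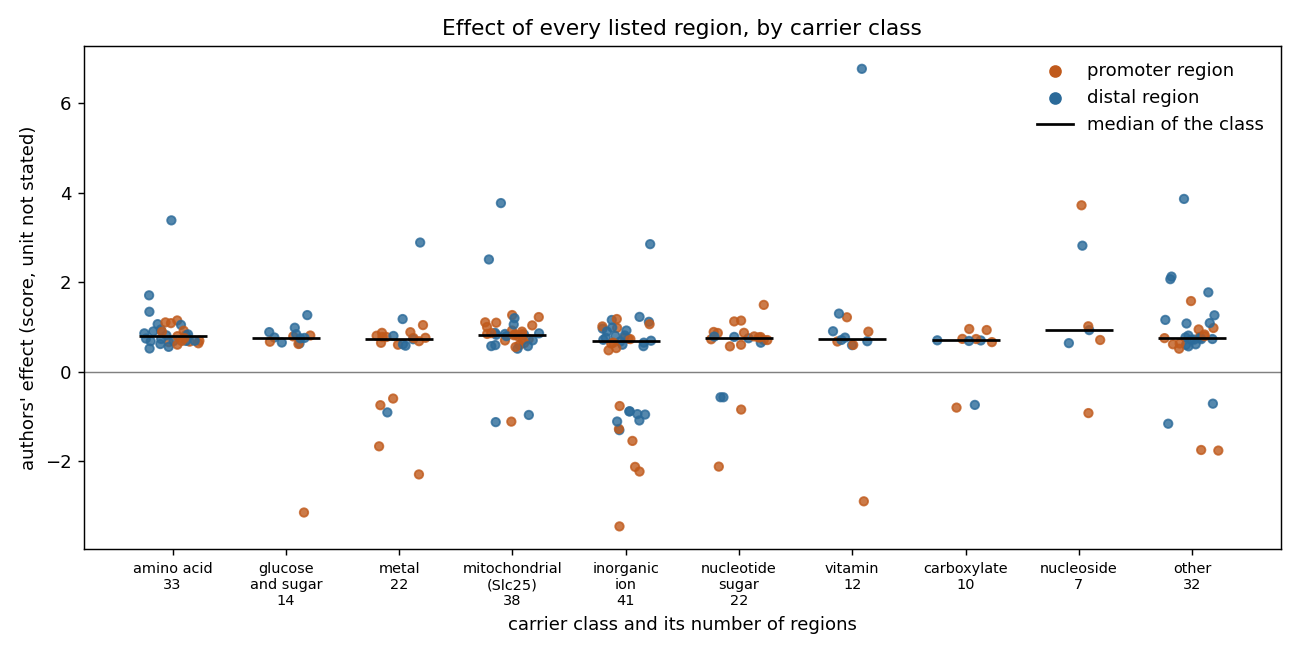
Effect of each carrier region (score, unit not stated) by carrier class, with promoter regions in orange, distal regions in blue and a bar at the class median. All 33 amino acid carrier regions lie above 0, while 13 of the 41 inorganic ion carrier regions lie below it; the 1 region of Slc9a3r1, which is not a carrier, is left out.

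Amino acid carriers had 33 regions at 23 of 52 genes, and all 33 were positive (100%, Wilson 89.6 to 100), with effects from 0.52 to 3.38 and a median of 0.79. Regions of like GC content and location in the whole list were positive in 89.7%, just inside the interval. The count depends on the annotation: with the starts of all transcripts of protein-coding genes, 39 regions fell to these genes and 2 were negative, at Slc38a1 and Slc1a2. It also depends on the classes, which follow the family name and were chosen with earlier results known: Slc16a10, an aromatic amino acid carrier placed with its Slc16 family, had a promoter region of -0.80, and with its regions counted here 34 of 35 were positive (97.1%, Wilson 85.5 to 99.5). Carriers that bring glutamine and large neutral amino acids into activated T cells were among the positive ones. Slc1a5 had a promoter region of 1.14 (adjusted p 2.3e-07 in the authors' deposited table) at chr7:16781026-16781650 and an intronic region of 0.52. Slc7a5, the light chain of the leucine carrier LAT1, had a region of 0.69 over a coding exon near its start, and Slc3a2, the heavy chain that LAT1 needs, had 0.89 at the promoter and 0.73 at a distal region. Slc7a1, an arginine carrier, reached 1.10 at its promoter.

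The Slc38 family of sodium-coupled neutral amino acid carriers had 12 regions at 7 of 11 genes, from 0.55 at Slc38a1 to 1.04 at Slc38a4. The latter value is from a 75 bp region 67238 bp from the start, nearer that of Rpl10a-ps3. Slc38a1 had 3 distal regions, of 0.81, 0.68 and 0.55. That of 0.81 lies 74874 bp from the Slc38a1 start, nearer that of Gm41392 (69186 bp). Slc38a2 had 1 region of 0.63, which covers the CARE printed above, and Slc38a9, a lysosomal arginine sensor, had a promoter region of 0.69. Outside this family, Slc36a1, a lysosomal proton-coupled amino acid carrier, had the highest effect of the class, 3.38 (adjusted p 4.5e-07) at the intergenic region chr11:55240526-55241225, and 0.66 at its promoter. Slc1a1 followed with 1.70 and Slc7a15 with 1.34, both in introns. The Slc1a1 region lies 34301 bp from that gene's start, nearer the start of Gm5822 (5668 bp). Slc43a2 had the lowest promoter effect of the class, 0.60.

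Glucose and sugar carriers had 14 regions at 13 of 23 genes, 13 of them positive (92.9%, Wilson 68.5 to 98.7). Regions of like GC content and location in the whole list were positive in 80.7%. All 8 regions of the Slc2 family lay between 0.62 and 0.88. Slc2a1, the main glucose carrier of activated T cells, had a promoter region of 0.81 at chr4:119108501-119109350, which is 70% GC. Slc2a3, a high-affinity glucose carrier, had no promoter region and a distal one of 0.88. Slc2a8 (0.62) and Slc2a7 (0.63) were the lowest positive values, and Slc5a9 (1.26) and Slc45a1 (0.98) the highest. The Slc45a1 value is from a 100 bp region 42476 bp upstream, nearer the start of Gm16079. The 1 negative region, -3.15 (adjusted p 2.6e-10), was given to Slc45a4 from 21106 bp away, and the nearest start of any gene to it was that of the non-coding gene 1700010B13Rik.

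Metal carriers had 22 regions at 17 of 32 genes, 17 positive (77.3%, Wilson 56.6 to 89.9), and regions of like GC content and location were positive in 75.2%. The zinc carriers are given by family. All 11 regions of the Slc39 importers were positive (Wilson 74.1 to 100), against 82.4% for like regions, with Slc39a10 (1.17) and Slc39a3 (1.04) highest and Slc39a6 at 0.77. The Slc39a10 value is from a 150 bp region 30754 bp upstream, nearer the start of Gm37393. Of the 6 regions of the Slc30 exporters 2 were positive (Wilson 9.68 to 70.0), against 58.5% for like regions. The Slc30a1 promoter, which MTF-1 regulates through metal response elements, had an effect of -2.29 (adjusted p 5.5e-10) at chr1:191906151-191907300 and -0.60 in its intron. Slc30a4 had -1.67 and Slc30a7 -0.91, while Slc30a6 had 0.88 and Slc30a3 0.60. The like-region shares lay within both families' intervals, the difference between these families was not tested, and the Slc30 interval is wide. The Slc30a1 regions, centred 42 and 858 bp from its start, are counted separately. Outside zinc, Slc31a2, a copper carrier, had the highest effect of the class, 2.88, in a region that is 82% soft-masked repeat, and Slc11a2, an iron carrier, had 0.80.

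Mitochondrial (Slc25) carriers had 38 regions at 25 of 47 genes, 35 positive (92.1%, Wilson 79.2 to 97.3), and like regions were positive in 87.4%. The median effect, 0.83, was the highest of the 4 classes compared. Slc25a21 (3.76, 77% soft-masked) and Slc25a13 (2.50), the latter an aspartate and glutamate carrier, had distal regions of high effect. Slc25a42, a coenzyme A carrier, had the highest promoter effect of the class, 1.26 (adjusted p 4.5e-08), at chr8:70212176-70212975. Slc25a25, an ATP-magnesium and phosphate carrier, had promoter regions of 1.22, 1.03 and 0.64, the last by the start of another gene. Slc25a1, the citrate carrier that feeds fatty acid synthesis, had 0.86, 0.79 and 0.59. Slc25a5, an ADP and ATP exchanger, had distal regions of 1.19 and 0.57. The 3 negative regions were at Slc25a54 (-1.13), Slc25a46 (-1.12) and Slc25a12 (-0.97).

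**Figure D2:**
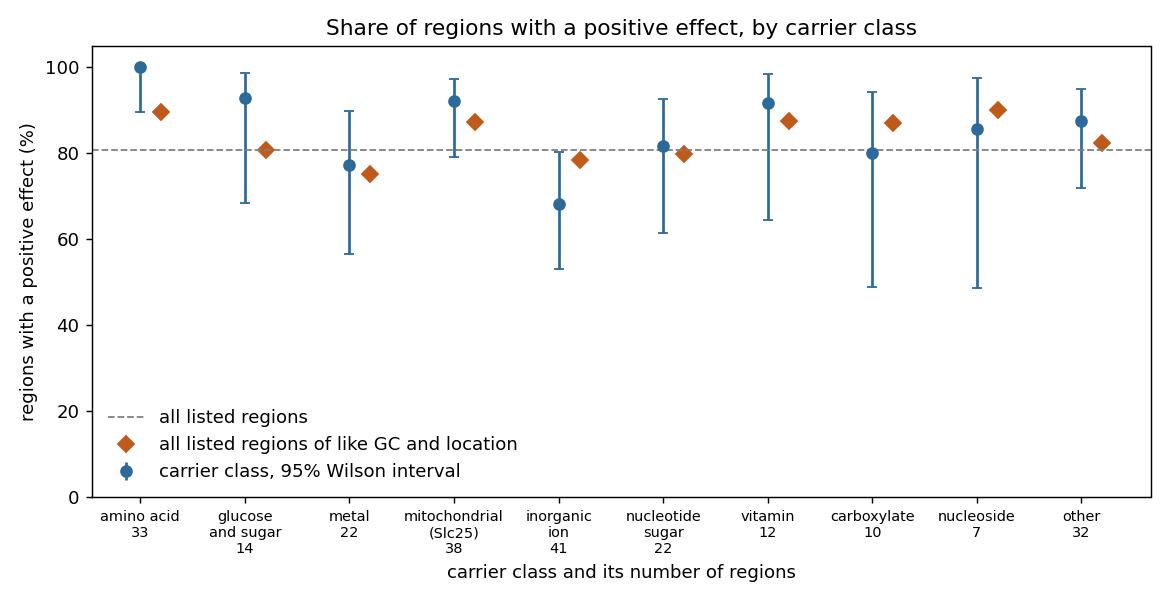
Share of regions with a positive effect (%) in each class, with 95% Wilson intervals, the share over all listed regions of like GC content and location (orange) and the share over all listed regions (dashed). The inorganic ion class is lowest, at 68.3%, and every orange marker lies within its class's interval.

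Among other carriers, inorganic ion carriers had the lowest share, 28 of 41 positive (68.3%, Wilson 53.0 to 80.4), and like regions were positive in 78.4%. In the Slc12 family of chloride cotransporters 5 of 10 regions were positive (Wilson 23.7 to 76.3), against 70.3% for like regions. Slc12a2, the sodium-potassium-chloride cotransporter NKCC1, had -1.31 and -1.28. In the Slc24 sodium-calcium exchangers 2 of 5 were positive (Wilson 11.8 to 76.9), against 75.8% for like regions. The lowest effect of any carrier region, -3.46 (adjusted p 2.1e-11), was at the start of Slc4a7, a bicarbonate carrier, at chr14:14702451-14703575. Genes with an Slc9 symbol, mostly sodium-proton exchangers, had 11 positive regions of 12 (Wilson 64.6 to 98.5), against 83.6% for like regions. This count includes the positive promoter region of Slc9a3r1 (1.16), which is not a carrier and is not in the inorganic ion class. Slc23a2, a vitamin C carrier, had -2.90 at its promoter.

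The negative promoter regions shared a high GC content. Of the 115 carrier promoter regions (centre within 1000 bp of any annotated start) 96 were positive, 83.5% against 75.1% of all listed promoter regions. All 74 under 65% GC were positive (Wilson 95.1 to 100), against 93.1% of all listed ones, and of the 41 at or above it 22 were positive (53.7%, Wilson 38.7 to 67.9), against 42.1%. The 19 negative ones spanned 65.2 to 74.1% GC, with a median effect of -1.67. The limit of 65% was chosen after the values were seen. GC content was not separated from other properties of these promoters, and its part was not tested. Among the amino acid carriers 3 promoter regions were at or above 65% GC and all 3 were positive, and among the metal carriers 4 of 8 were.

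**Figure D3:**
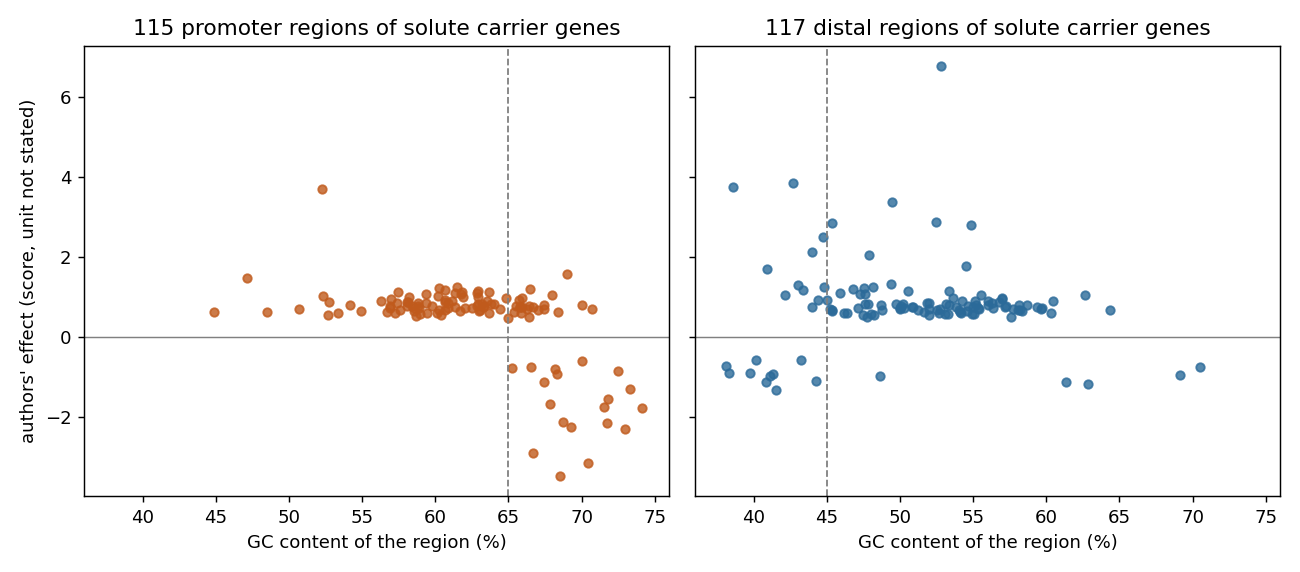
Effect against GC content (%) for the 115 promoter (left) and 117 distal (right) carrier regions, with dashed lines at 65% and 45% GC. All 19 negative promoter regions lie to the right of the line at 65%, and 10 of the 15 negative distal regions lie left of the line at 45%.

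Distal carrier regions numbered 117, and 102 were positive (87.2%), against 86.9% of all listed distal regions. Of the 21 under 45% GC 11 were positive (52.4%, Wilson 32.4 to 71.7), and of the 96 at or above it 91 were (94.8%, Wilson 88.4 to 97.8). In the whole list these shares were 60.1% and 94.2%.

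High effects of carrier regions were mostly distal. Of the 11 carrier regions above 2 (4.74%, against 5.52% of all listed regions) 10 were distal, 3 had several near-identical copies in the genome (27.3%, against 56.7% of all listed regions above 2) and 5 were over 50% soft-masked as repeats. The region near Slc19a2 had both properties, and 4 had neither. The distal and soft-masked shares of all listed regions above 2 were not computed, so these counts are not shown to be particular to carriers. The highest, 6.76 at a region 24171 bp upstream of Slc19a2, a thiamine carrier, had 49 near-identical copies in a search that reported up to 50 secondary matches, so the value cannot be tied to this place in the genome. The promoter region of that gene had 1.21 and an intronic one 1.30. Next came Slc17a8 (3.86, 64% soft-masked), Slc25a21 (3.76, 77% soft-masked), Slc28a2 (3.71, 3 copies), Slc36a1 (3.38), Slc31a2 (2.88, 82% soft-masked), Slc9a8 (2.85, 100% soft-masked), Slc28a3 (2.81), Slc25a13 (2.50) and Slc22a27 (2.12, 2 copies). The lowest after Slc4a7, Slc45a4, Slc23a2 and Slc30a1 were Slc24a3 (-2.23), Slc9a2 (-2.13), Slc35e1 (-2.12), Slc22a23 (-1.76), Slc44a1 (-1.75) and Slc30a4 (-1.67).

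**Figure D4:**
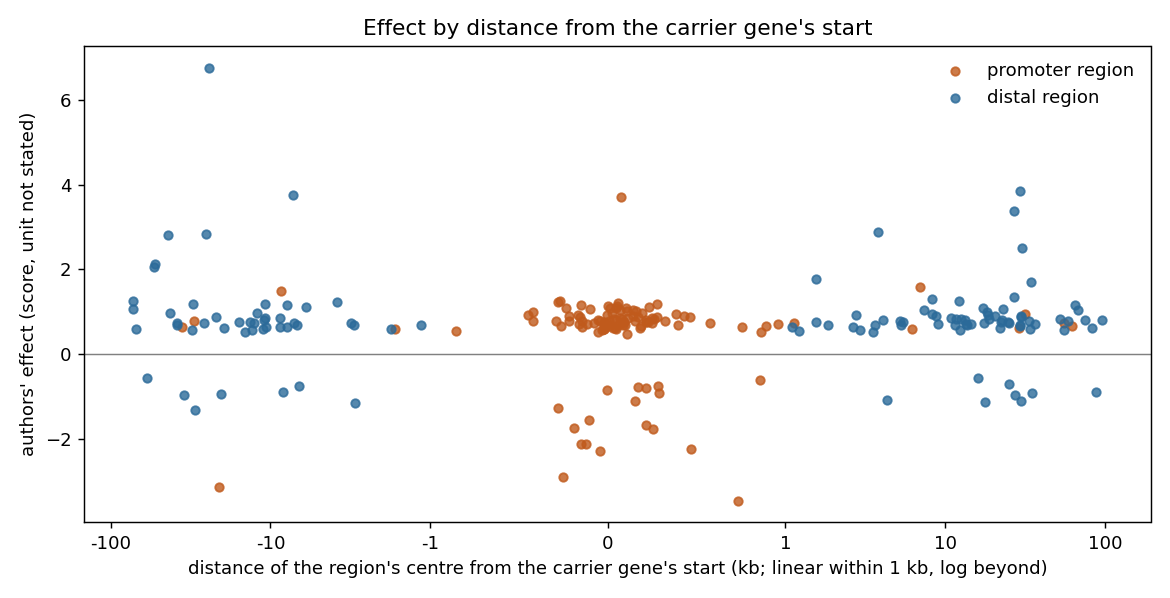
Effect of each carrier region against the distance of its centre from the carrier gene's start (kb, linear within 1 kb and logarithmic beyond). Of the 11 effects above 2, 10 are distal, a share not computed over all listed regions above 2. The negative regions are 19 promoter and 15 distal ones.

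Of the 53 carrier genes with at least 2 regions, 41 had positive ones alone, 2 negative ones alone and 10 both signs (18.9%, against 30.4% of all such genes). The widest range was at Slc4a7, from -3.46 at its start to 0.60 at a region 69004 bp upstream. At Slc24a3 a promoter region of -2.23 and a distal one of -0.89 stood beside an intronic one of 0.69. Slc35g1, Slc4a4 and Slc24a5 followed, with ranges of 2.34, 2.27 and 2.18. Slc10a4 was among the genes with most regions, with 4, all positive (1.77, 1.58, 1.16 and 0.94). Those of 1.77 and 1.58 had 2 copies each in the genome, and the regions of 1.58 and 1.16 lay in the genes Gm15847 and Fryl.

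A list of 30 carriers known in activated T cells had 39 regions at 23 genes, 34 of them positive (87.2%, Wilson 73.3 to 94.4), and like regions were positive in 79.2%, which lies within that interval. Its remaining members included Slc16a1 (0.95 and 0.66) and Slc16a3 (0.70), which carry lactate, Slc19a1 (0.67), a folate carrier, and Slc20a1 (1.06), a phosphate carrier. The regions given to Slc16a1 lay 31682 and 62407 bp from its start. They were nearer the starts of other genes, Gm29560 (340 bp) and Gm24223 (205 bp). No listed region fell to Slc7a11, Slc7a6, Slc11a1, Slc29a1, Slc31a1, Slc39a8 or Slc40a1.

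Consensus sequences were sought on both strands of each whole region, with overlaps between motifs allowed. NFY was found in 28.0% of carrier regions and 26.0% of all listed regions. By class it was in 10 metal (45.5%), 15 Slc25 (39.5%), 5 glucose and sugar (35.7%) and 9 amino acid carrier regions (27.3%). Of these, 9 metal, all 15 Slc25, 4 glucose and sugar and all 9 amino acid ones were positive. Of all listed regions with NFY 86.3% were positive. Location differs between the classes: promoter regions made up 68.2% of metal, 55.3% of Slc25, 35.7% of glucose and sugar and 39.4% of amino acid carrier regions. In the whole list NFY was in 33.6% of promoter and 17.7% of distal regions. The class shares of NFY and MRE were not compared at like location. CARE was found in 6.47% of carrier regions against 5.24%, and in 4 of the 33 amino acid carrier regions (12.1%), those of Slc1a4, Slc38a2, Slc6a9 and Slc7a1. CRE was in 2.16% against 3.61%, in 5 regions, all positive, where 88.4% of all listed regions with CRE were. The E-box was in 20.7% against 14.0%, AP-1 in 24.6% against 22.2% and ETS in 14.2% against 16.6%. MRE was in 51.3% against 47.0%, and in 13 of the 22 metal carrier regions (59.1%). In the glucose and sugar class it was in 64.3% of regions, in Slc25 in 52.6% and in the amino acid class in 45.5%. In promoter regions alone MRE was in 73.9% of carrier ones and 64.5% of all listed ones. The NRF1 consensus was in 7.33% against 11.8%. In carrier promoter regions alone NFY was in 39.1% (33.6% of all listed promoters) and the E-box in 28.7% (18.6%). In the central 200 bp the order turned, among the sequences given here, for NFY (9.48% of carrier regions against 11.6% of all listed) and CARE (1.29% against 1.78%). A match says only that these letters occur in the region.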

How the data were processed

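STARR-seq output libraries of 2 biological replicates were combined by the authors in 1 table of mm10 regions, per the file headers. The deposited table gives each region a signed effect, a score of unstated scale, along with its p-value and q-value (adjusted p-value). Not given in the sources used here: how reads were aligned, regions called and values normalized and tested. Library depth is unknown. As the libraries were combined, no spread between replicates is available.

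Regions on unplaced scaffolds (21) were not used. With Python 3.11.15 and pysam 0.24.0, each region was given its nearest GENCODE M21 start, its GC content and its soft-masked share on GRCm38. Copies were matches of at least 95% identity over 240 bp of the central 300 bp, found with minimap2 2.31. The like-region share is the mean, over a class's regions, of the positive share of all listed regions of the same promoter or distal location and 5-point GC class, carrier regions included. Shares were described with Wilson intervals and no test between classes was run. The consensus search and intervals were tested on simulated data. The members, classes and lists were chosen with earlier results of these data known. The rule for named genes took every region of the T cell list, the 3 highest and lowest regions of each class, the 10 highest and lowest of all, the 5 genes with most regions and up to 5 genes with the widest range of both signs; some are given only through counts, and a further gene that the rule named is not reported here.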

Additional observations from a re-analysis of the deposited data

How the results depend on the processing

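Of 76 values recomputed under alternatives, 66 stayed within the 95% interval of the value given and 10 did not. As every amino acid carrier region was positive, that class's share of 100% could not move where regions were only selected, merged or averaged by gene. Those values are among the 66 and say nothing about stability. The share of positive carrier regions fell to 72.3% among absolute effects of at least 1 (67.1% of all listed regions) and was 98.2% at 45 to under 65% GC (94.7% of all listed regions). That window was chosen with earlier results of these data known, so the rise within it is no support. At that GC content all metal (12), Slc25 (30) and glucose and sugar (10) carrier regions were positive, or 100%. The glucose and sugar share was also 100% within 20 kb, in distal regions alone and where the nearest start of any gene is the carrier's, an alternative chosen after seeing the data (as was counting Slc16a10 as an amino acid carrier), and it was 50% among the 2 regions with an absolute effect of at least 1. The median effect was 0.84 with an adjusted p under 0.001. All 12 consensus shares of carrier regions were lower in the central 200 bp, a shorter stretch. Those of NFY, CARE, CRE, NRF1, ETS, STAT (TTCNNNGAA) and YY1 (AAGATGGC) then lay below the whole list's. Of these, only NFY and CARE had lain above it over whole regions. The ERR sequence (AAGGTCA) turned the other way, from 7.33% against 8.19% over whole regions to 3.02% against 2.48%. Leaving out a replicate was not possible and no paired analysis was possible because the table combines both libraries. With no counts per library, depth limits each region's effect to an unknown degree.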

Other observations

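Carriers of other substrates are given beside like regions of the whole list, whose shares lay within each Wilson interval. The class named for nucleotide sugar carriers, which supply the Golgi with sugars for glycosylation, also holds related carriers, among them the Slc37 family. It had 18 positive regions of 22 in the authors' deposited table (81.8%, like regions 79.8%), with Slc35g1 highest (1.49) and Slc35e1 lowest (-2.12). The region of 1.49 is 88% soft-masked and lies 8617 bp from the Slc35g1 start, nearer that of AC116871.3 (740 bp). The promoter region at the Slc35g1 start had -0.85. Vitamin carriers had 11 of 12 positive (91.7%, like regions 87.6%). Nucleoside carriers had 6 of 7 positive (85.7%, like regions 90.1%), with 3 regions in multi-copy sequence at Slc28a2. The class named for carboxylates, which holds the whole Slc13 and Slc16 families and so also Slc16a10, had 8 of 10 positive (80%, like regions 87.1%), with effects up to 0.95. Slc16a10 and Slc16a8 each had 1 region of either sign. The Slc22 organic ion carriers had 5 positive regions of 8 (62.5%, like regions 73.8%), with Slc22a27 highest (2.12) and Slc22a23 lowest (-1.76). The Slc22a27 region of 2.12 has 2 copies in the genome and lies 52836 bp from the start. Beside it lies the other Slc22a27 region (2.06), and the Slc22a8 regions (1.26 and 1.08) also adjoin each other, 72816 and 72179 bp from the start. These regions were nearer the starts of AC122119.1 (Slc22a27) and Gm8189 (Slc22a8), and that of 1.08 is 90% soft-masked.

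The centre of 27 carrier regions lay in a transcript of another gene only, and for 63 the nearest start of any gene was not the carrier's. Slc9a3r1, whose symbol meets the rule although it encodes a scaffold protein and no carrier, had a promoter region of 1.16.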
